A study of Mus musculus with 5 samples.

Results

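The interleukins and their receptors were examined as 89 of the 22380 protein-coding genes in the gencode annotation of the mm9 mouse genome. They comprised every protein-coding gene whose symbol begins with Il and a digit, together with *Ifng*, *Ifngr1*, *Ifngr2* and *Csf2*, and every DNase-seq peak with its summit in the gene body or within 20 kb of it was taken as part of the locus. DNase-seq reads out open chromatin as the places where DNase I cuts, and the data were 1 peak list from WT and 1 from dKO naïve CD8+ T cells, each called by the authors on pooled replicates (3 WT and 2 dKO). All mice were of the C57BL/6 background, were 6 to 12 weeks old and carried an *hCD2-Cre* transgene with a *Rosa26* GFP reporter. WT mice had intact *Tcf7* (encoding Tcf1) and *Lef1*, whereas in dKO mice both genes were floxed (*Tcf7* fl/fl *Lef1* fl/fl) and thus deleted where Cre was active. The *hCD2-Cre* transgene acts mostly in mature T cells outside the thymus, so the deletion follows thymic development. The sorted splenocytes were GFP+, TCRβ+ and CD8+ with high CD62L and low to medium CD44, where GFP marks cells in which Cre had acted on the reporter rather than the loss of each floxed allele.

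Interleukins are secreted signals between leukocytes, and a cell answers those for which it carries a receptor. Naïve CD8+ T cells live on IL-7 and IL-15, which are read through receptors that contain the common gamma chain (γc, encoded by *Il2rg*), and their Jak kinases then phosphorylate Stat proteins. Receptors for IL-12, IL-18, IL-21 and the IL-6 family shape what the cell becomes after it meets antigen, whereas effector cytokines such as *Ifng* and *Il2* are made mainly after activation. Tcf1 and Lef1 are HMG-box transcription factors that bind the Tcf/Lef motif and act in T cell development and in the naïve and memory states.

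Peaks were called chromatin accessible (ChrAcc) sites where they had at least 4-fold enrichment (pileup against the local background that MACS2 estimates from that pool), p under 1e-05 and q under 0.05. The WT loci held 184 deposited peaks, of which 170 were ChrAcc sites, and the dKO loci held 145, of which 143 were. Merging sites that overlapped by at least 1 bp gave 194 regions, and 118 of them held a site in each list. Each site is described by its percentile, the rank of its fold enrichment among all sites of its own list (100 is the strongest, and 0 stands for no site), and by its pileup, which counts the fragments that cover the summit. The WT pool held 83923734 fragments and the dKO pool 62242963, 1.35 times fewer, so pileups were also divided by the fragments of their pool and compared as a log2 ratio (dKO over WT). With 1 pooled list per genotype there is no spread between replicates, no genotype difference could be tested, and each comparison describes these pools. The 95% intervals cover counting error only, and PCR reads without molecular identifiers are not independent molecules.

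As a check of the cell type, 4 of 4 defining T cell genes in the annotation (*Cd8a*, *Cd8b1*, *Cd3e* and *Cd3g*) had a ChrAcc site within 1 kb of a transcription start site (TSS) in each list, with percentiles of 4.58 to 63.5 in WT and 10.3 to 66.6 in dKO. Neither of the B cell genes *Cd79a* and *Ms4a1* and neither of the NK cell genes *Ncr1* and *Klrb1c* had one. Of the monocyte and macrophage genes *Csf1r*, *Cd14* and *Itgam*, only *Itgam*, a chain of the complement receptor that some T cells also carry, had such a site, at percentile 34.8 in WT and absent from dKO. The part of other cells in the results was not tested.

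Sequences of 7 sites are shown first, as 201 bp around the WT summit, from the plus strand of mm9. The first 3 are shown for their motif, whatever their rank, and were sites of the WT list alone that contain the Tcf/Lef core ATCAAAG, given in capitals, on either strand. The *Il12rb2* site in intron 8 (chr6:67267902-67268102) ranked at percentile 80.4 in WT. The *Il12rb2* site in intron 12 (chr6:67252575-67252775) ranked at 8.81, and the *Il10rb* site 37.3 kb downstream of the TSS (chr16:91443660-91443860), which also holds a capitalised AP-1 motif, ranked at 16.2. None of these regions held a site in dKO.
Il12rb2 intron 8: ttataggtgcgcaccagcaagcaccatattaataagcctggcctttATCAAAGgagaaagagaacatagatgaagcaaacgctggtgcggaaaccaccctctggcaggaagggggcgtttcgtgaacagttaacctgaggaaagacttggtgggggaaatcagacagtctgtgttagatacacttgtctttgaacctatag
Il12rb2 intron 12: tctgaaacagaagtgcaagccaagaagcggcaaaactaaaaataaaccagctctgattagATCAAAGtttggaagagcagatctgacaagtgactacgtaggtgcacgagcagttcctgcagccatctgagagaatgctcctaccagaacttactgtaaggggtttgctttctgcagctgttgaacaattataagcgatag
Il10rb downstream: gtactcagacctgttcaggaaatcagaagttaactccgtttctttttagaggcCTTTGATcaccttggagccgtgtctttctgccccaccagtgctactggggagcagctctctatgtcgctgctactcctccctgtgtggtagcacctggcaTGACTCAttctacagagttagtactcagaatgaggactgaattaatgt
The next 4 were among the 5 shared sites with the largest rank difference between the lists, all ranked higher in WT. They lay in intron 7 of *Il12rb2* (chr6:67298203-67298403), 48.8 kb downstream of the *Il6ra* TSS (chr3:89668170-89668370), 3.65 kb upstream of *Il7r* (chr15:9463182-9463382) and 14.6 kb upstream of *Il21r* (chr7:132732287-132732487). Capitals mark a Runx motif (TGTGGTT, here on the minus strand) in *Il12rb2* and a STAT motif (TTCNNNGAA) in *Il6ra*. The other 2 held none of the 6 motifs searched.
Il12rb2 intron 7: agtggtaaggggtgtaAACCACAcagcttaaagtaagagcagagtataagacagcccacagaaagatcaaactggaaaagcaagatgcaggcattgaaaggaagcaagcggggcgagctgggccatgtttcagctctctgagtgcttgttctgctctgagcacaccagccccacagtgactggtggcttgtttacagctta
Il6ra downstream: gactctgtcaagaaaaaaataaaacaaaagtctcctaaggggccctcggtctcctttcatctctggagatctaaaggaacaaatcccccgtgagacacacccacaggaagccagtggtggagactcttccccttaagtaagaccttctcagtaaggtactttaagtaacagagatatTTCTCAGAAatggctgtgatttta
Il7r upstream: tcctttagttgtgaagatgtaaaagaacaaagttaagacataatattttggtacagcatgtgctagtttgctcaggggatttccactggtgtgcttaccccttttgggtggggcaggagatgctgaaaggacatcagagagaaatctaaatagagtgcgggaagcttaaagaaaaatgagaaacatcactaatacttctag
Il21r upstream: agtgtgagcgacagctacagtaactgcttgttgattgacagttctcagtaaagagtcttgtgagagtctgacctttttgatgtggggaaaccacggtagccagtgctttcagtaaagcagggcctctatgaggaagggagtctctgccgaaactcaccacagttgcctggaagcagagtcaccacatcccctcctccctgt

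Across the loci, 52 of the 170 WT sites (30.6%, interval 24.2 to 37.9%) were absent from dKO, against 27.6% of all WT sites. Conversely, 24 of the 143 dKO sites (16.8%, interval 11.5 to 23.8%) were absent from WT, against 14.4% of all dKO sites. Both shares lay near those of the whole lists. Sites of 1 list only were weak, with a median percentile of 21.1 in WT and 8.27 in dKO, whereas shared sites had medians of 57.8 and 48.3. Of the regions in 1 list only, 2 WT-only and 4 dKO-only regions overlapped a deposited peak of the other list that missed the criteria. Sites within 1 kb of a TSS of any protein-coding gene made up 35.3% of WT and 35.0% of dKO sites in the loci. Of those, 16 of 60 WT sites (26.7%, interval 17.1 to 39.0%) were absent from dKO, against 15.2% of such sites in the whole WT list. Further than 1 kb from a TSS the share was 36 of 110 (32.7%, interval 24.7 to 41.9%), against 35.0% in the whole list. The dKO-only shares were 5 of 50 near a TSS and 19 of 93 (20.4%) away from it, against 4.23% and 21.2% in the whole dKO list.

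Of the 89 genes, 57 had a WT site (64.0%, against 66.1% of all protein-coding genes) and 49 had a dKO site (55.1%, against 63.2%). A site was present in both lists for 48 genes, in WT alone for 9 and in dKO alone for 1, *Il17rb*, which encodes a receptor chain for IL-25. That dKO site, at percentile 38.2, lay 5.80 kb upstream of *Il17rb* with *Chdh* as the nearest TSS. In WT the *Il17rb* locus held 2 deposited peaks that missed the criteria. The other 31 genes had no ChrAcc site in either list. They included the effector cytokines *Il2*, *Il3*, *Il10*, *Il13*, *Il17a*, *Il17f*, *Il22* and *Csf2*, and also *Il6*, *Il7*, *Il15*, *Il1b* and *Il33*, which other cells make. Of these 31, only *Il31* had a deposited peak at all. A gene without a site was below the criteria at this depth, where the weakest ChrAcc site had 21 fragments over its summit in WT and 16 in dKO. More sites were listed in WT for 29 genes (32.6%, against 26.6% of all protein-coding genes) and in dKO for 10 (11.2%, against 9.66%).

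**Figure D1:**
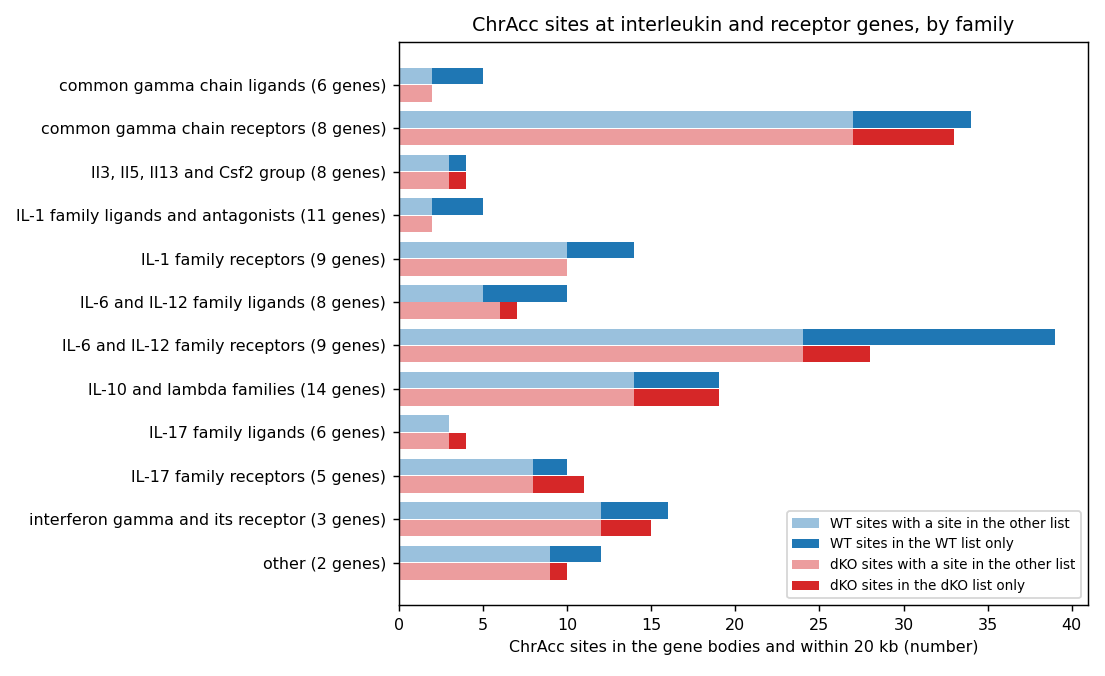
Number of ChrAcc sites per gene family (horizontal axis) in the WT (blue) and dKO (red) lists, with sites that overlap a site of the other list in the pale part and sites of 1 list only in the dark part. The IL-6 and IL-12 family receptors had 39 WT and 28 dKO sites, the largest gap, whereas the γc receptors had 34 and 33.

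Receptor genes carried most of the sites. The 8 genes of the γc receptor group (*Il2ra*, *Il2rb*, *Il2rg*, *Il4ra*, *Il7r*, *Il9r*, *Il15ra* and *Il21r*) had 34 WT and 33 dKO sites, and each of the 8 had a site in both lists. Of these sites, 7 were in WT only (20.6%, against 27.6% of the whole WT list) and 6 in dKO only (18.2%, against 14.4% of the whole dKO list). The 9 IL-6 and IL-12 family receptor genes had 39 WT and 28 dKO sites, with 15 in WT only (38.5%, against 27.6% of the whole WT list) and 4 in dKO only (14.3%, against 14.4% of the whole dKO list). Of these, 10 WT sites lay at *Il11ra1*, most of them at start sites of other genes, and without it the family had 29 WT and 22 dKO sites, with 11 in WT only (37.9%) and 4 in dKO only (18.2%). Within that family, 5 genes had more WT sites, none had more dKO sites, and 3 had as many of each. By contrast, the ligand genes were sparsely marked. The 6 γc ligand genes had 5 WT and 2 dKO sites, the 11 IL-1 family ligands and antagonists 5 and 2, and the 8 IL-6 and IL-12 family ligands 10 and 7, and no γc or IL-1 family ligand gene had a site within 1 kb of its TSS. Sites near more than 1 member numbered 17 in WT and 16 in dKO and were counted once within a family. For 112 WT and 96 dKO sites the nearest TSS of any protein-coding gene was that of a member, so the remainder lay closer to another gene.

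At the 118 shared regions, the median log2 ratio of depth-scaled pileup was -0.11 (quartiles -0.36 and 0.16), against -0.13 (quartiles -0.36 and 0.11) over all 20533 shared regions of the series. The pools were at least 2-fold apart at 3 regions (2.54%), all higher in WT, against 1.34% of all shared regions, and at none in the other direction, against 0.935%. The counting interval lay below 0 (higher in WT) at 18 regions (15.3%, against 11.2% of all shared regions) and above 0 (higher in dKO) at 3 (2.54%, against 4.21%). Ranks differed by at least 25 percentile points in favour of WT at 13 regions (11.0%, against 9.09% of all shared regions) and in favour of dKO at 2 (1.69%, against 4.19%). In all, 61 regions ranked higher in WT (51.7%, against 58.7% of all shared regions) and 57 in dKO. The lists differ in length, and with the 20000 peaks of highest -log10 p from each, the median rank difference (dKO minus WT) of the shared regions was 1.27 points in place of -0.67.

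**Figure D2:**
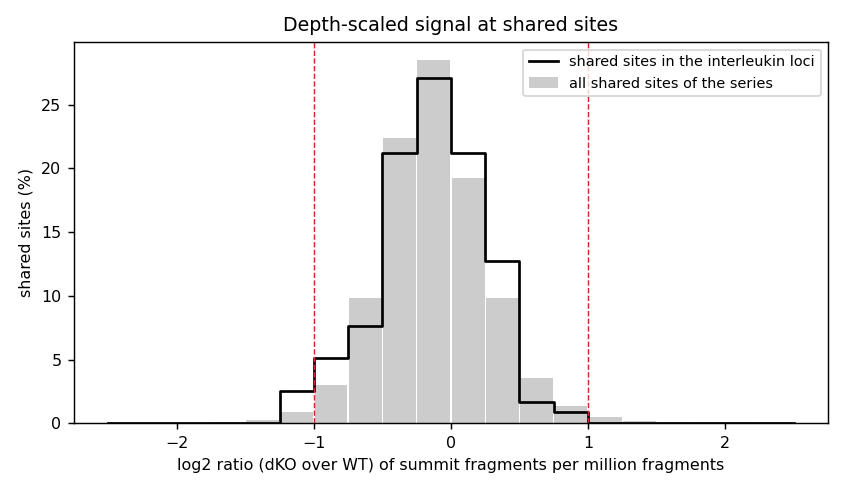
Distribution of the log2 ratio (dKO over WT) of summit fragments scaled to the fragments of each pool, in percent of shared sites, for the interleukin loci (black line) and for all shared sites of the series (grey bars). Dashed red lines mark a 2-fold difference, and the medians were -0.11 and -0.13.

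**Figure D3:**
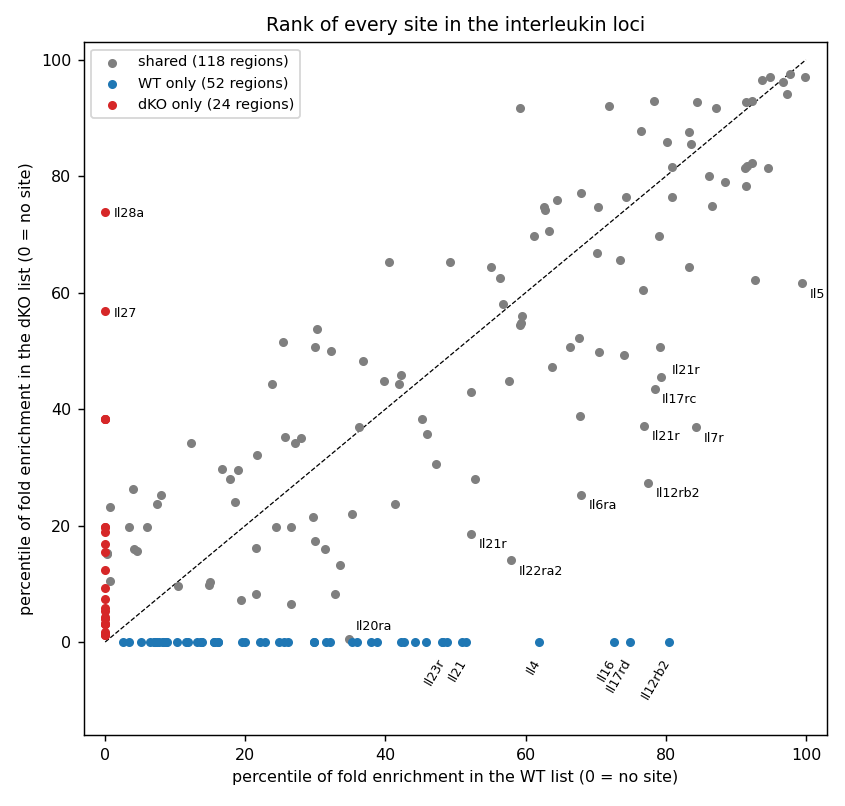
Percentile of fold enrichment in the WT list (horizontal) and the dKO list (vertical) of the 194 regions, with shared regions in grey, WT-only in blue on the horizontal axis and dKO-only in red on the vertical axis. Labels name the locus of each site of 1 list only at percentile 50 or above and of the 10 shared sites with the largest rank difference, all of which lay below the dashed line of equal rank.

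*Il7r* encodes the IL-7 receptor alpha chain, on which naïve T cells depend. Its strongest WT site lay 3.65 kb upstream, at percentile 84.3 with 97 fragments in WT and at 36.9 with 43 fragments in dKO. The log2 ratio was -0.74 (interval -1.30 to -0.21), and intervals below 0 occurred at 11.2% of all shared regions. The site was picked for its large rank difference in these same lists, so its interval is not a test. The site at the TSS, in the 5′ UTR of exon 1, ranked at 30.0 in WT and 17.4 in dKO, with a log2 ratio of -0.19 (interval -0.81 to 0.42) that spans 0. A pair of sites in intron 1, at percentiles 24.8 and 11.9, was in the WT list only, and a site 5.53 kb upstream, at percentile 15.5, was in the dKO list only.

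*Il2ra* encodes the IL-2 receptor alpha chain (CD25), which naïve cells carry at low levels. Its site 206 bp upstream of the TSS ranked at 26.5 in WT but at 6.60 in dKO. The 3 sites in intron 1 ranked at 88.5, 83.4 and 49.2 in WT and at 79.0, 64.5 and 65.3 in dKO, in order of distance from the TSS. The counting interval of each of these 4 sites spans 0. A site 6.48 kb upstream and one in intron 7 were in dKO only, at percentiles 7.33 and 3.02.

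*Il2rb*, the chain that IL-2 and IL-15 receptors share, and *Il2rg* had strong promoter sites in each list. The *Il2rb* site 140 bp upstream of the TSS ranked at 83.6 in WT and 85.6 in dKO, with 107 and 74 fragments and a log2 ratio of -0.10. The *Il2rg* site 13 bp upstream ranked at 76.5 and 87.8, with 68 and 58 fragments and a log2 ratio of 0.20. The strongest *Il2rg* locus site in dKO, 14.1 kb downstream and 366 bp from a *Foxo4* TSS, ranked at 59.2 in WT and 91.7 in dKO, although its pileups of 90 and 66 fragments gave a log2 ratio of -0.02. There the fold enrichments were 9.51 and 15.0, so the rank difference at this region came with a different local background and a near-equal depth-scaled summit. *Il15ra*, the IL-15 receptor alpha chain, had 1 WT and 2 dKO sites. The shared site, in intron 1, ranked at 7.40 and 23.7 and also lay within 20 kb of *Il2ra*. The other was the dKO-only site in intron 7 of *Il2ra*, at percentile 3.02, for which *Il15ra* was the nearest TSS. The *Il9r* promoter site, for the IL-9 receptor chain, was in WT only at percentile 5.08, and the strongest *Il9r* site, 5.21 kb upstream, ranked at 93.8 in WT and 96.5 in dKO.

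*Il4ra* (the IL-4 receptor alpha chain) and *Il21r* (the IL-21 receptor) are neighbours on chromosome 7, and 3 WT sites lay in both loci. The *Il4ra* promoter site ranked at 35.2 in WT and 21.9 in dKO, and its intron 1 site at 33.5 and 13.2, with 50 and 22 fragments and a log2 ratio of -0.75 (interval -1.55 to -0.003). *Il21r* had 9 WT and 9 dKO sites in 11 regions. The site 14.6 kb upstream, which lies in the interval between both genes, ranked at 76.9 with 108 fragments in WT and at 37.2 with 43 fragments in dKO (log2 ratio -0.90, interval -1.44 to -0.38). The site in intron 1 (chr7:132750922-132751238), which contains a Tcf/Lef core, ranked at 79.3 with 135 fragments and at 45.4 with 48 fragments, with a log2 ratio of -1.06 (interval -1.57 to -0.58). It was 1 of the 3 shared sites at least 2-fold higher in WT. A site 35.7 kb from the TSS, past the 3′ end, ranked at 52.2 and 18.6. In the opposite direction, the promoter site of *Il21r* ranked at 3.90 in WT and 26.2 in dKO, although its log2 ratio of 0.16 (interval -0.49 to 0.81) spans 0. At 7 of the 11 regions the WT rank was higher.

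**Figure D4:**
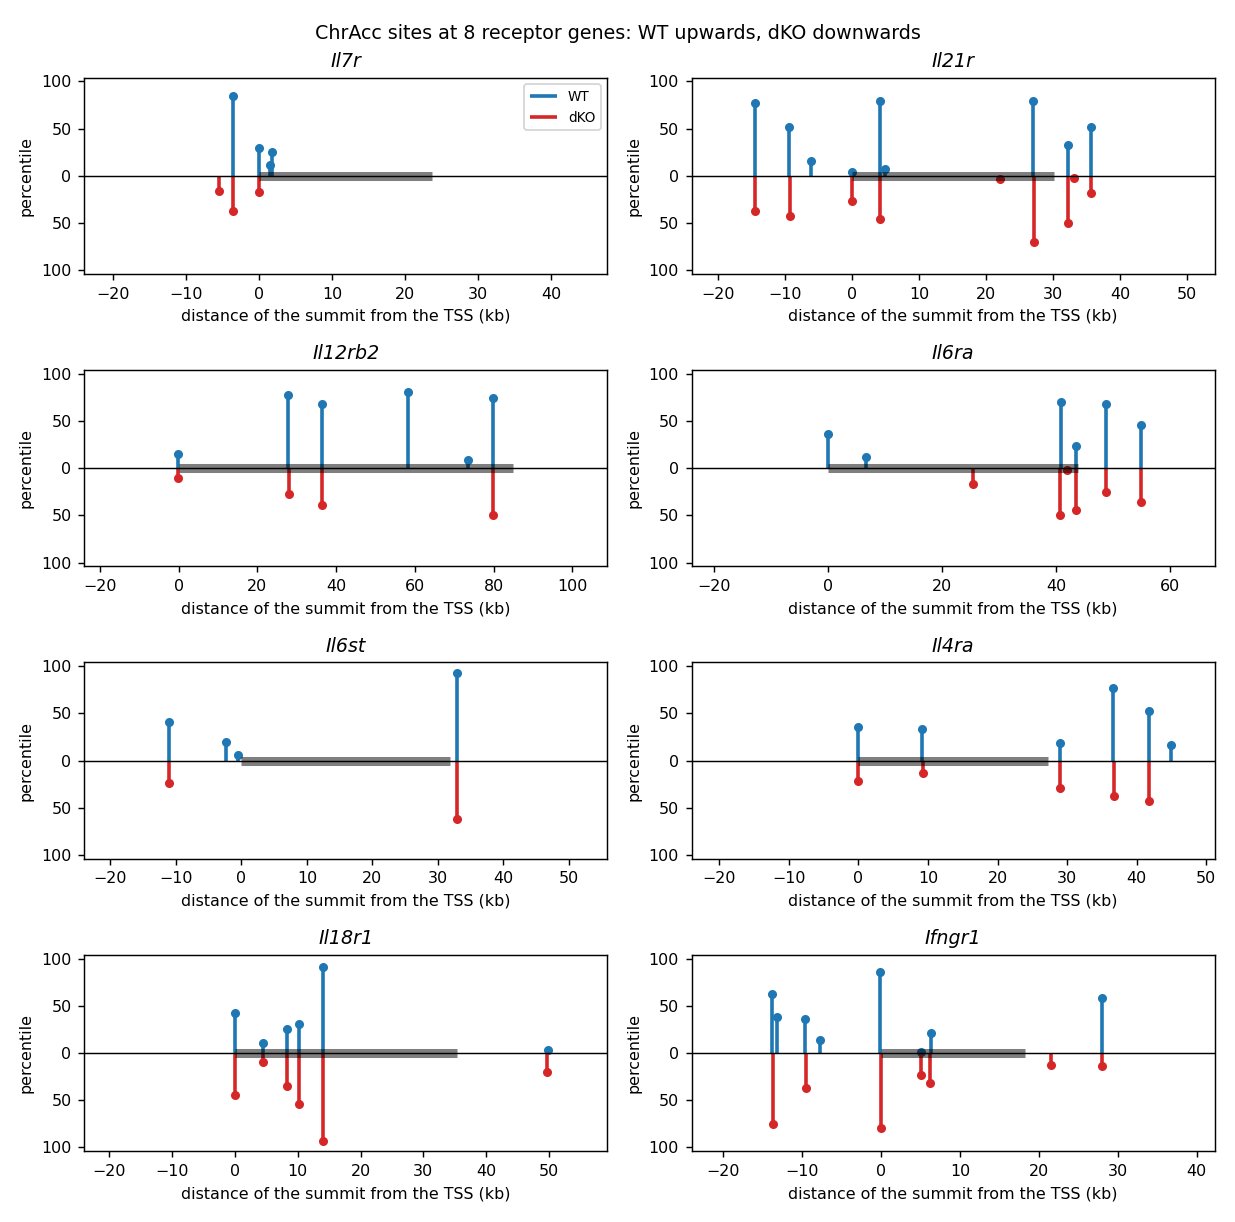
ChrAcc sites at 8 receptor genes by the distance of the summit from the TSS in kb (horizontal) and by percentile (vertical), with WT sites drawn upwards in blue and dKO sites downwards in red. The thick grey line is the gene body, and at *Il12rb2* each of the 6 WT sites ranked above its dKO counterpart or had none. The counting intervals of some of its shared sites span 0.

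*Il12rb2* encodes the signalling chain of the IL-12 receptor, through which IL-12 drives effector differentiation and interferon gamma production. It had 6 WT and 4 dKO sites, and all 6 regions ranked higher in WT. The intron 8 site, 58.2 kb from the TSS, ranked at 80.4 with 86 fragments in WT and was the highest-ranked WT-only site of all the loci. The site in intron 7, 27.9 kb from the TSS, ranked at 77.5 with 94 fragments in WT and at 27.3 with 36 in dKO (log2 ratio -0.95, interval -1.55 to -0.39). Another in intron 7, which lies 15 bp from the TSS of a shorter *Il12rb2* transcript, ranked at 67.7 and 38.9 (log2 ratio -0.44, interval -1.03 to 0.13). The intron 14 site ranked at 74.1 and 49.3 (log2 ratio -0.46, interval -1.03 to 0.09), so both intervals span 0. The intron 12 site was in WT only, and the promoter site ranked at 14.9 and 10.4, with a log2 ratio of 0.14 (interval -0.65 to 0.92).

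The other chain of the IL-12 receptor, *Il12rb1*, showed another pattern. At 5 of its 7 regions the dKO rank was higher, its shared regions ranked at 56.4, 70.3 and 55.0 in WT and at 62.5, 74.8 and 64.3 in dKO (with log2 ratios from -0.24 to -0.21, so the pileups did not share the direction of the ranks), and it had 2 WT-only and 2 dKO-only regions. *Il23r*, which pairs with *Il12rb1* in the IL-23 receptor, had a WT-only site 19.1 kb upstream at percentile 50.9.

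*Il6ra*, the IL-6 receptor alpha chain, had 6 WT and 6 dKO sites. The promoter site, 64 bp upstream of the TSS, was in the WT list only, at percentile 35.9 with 51 fragments. The site 48.8 kb downstream of the TSS, beyond the 3′ end and with *She* as the nearest TSS, ranked at 67.9 with 78 fragments in WT and at 25.3 with 25 in dKO. Its log2 ratio of -1.21 (interval -1.92 to -0.54) was the lowest of the 118 shared regions. The intron 9 site ranked at 70.4 and 49.9, whereas the site in the 3′ UTR of exon 10 ranked at 23.8 in WT but at 44.3 in dKO. The log2 ratio of the 3′ UTR site was 0.22 (interval -0.35 to 0.79), which spans 0. By rank, the gene thus had sites in both directions.

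*Il6st* encodes gp130, the signal transducer shared by the IL-6 family, and all 4 of its regions ranked higher in WT. Its promoter site was in WT only at percentile 6.43, as was a site 2.41 kb upstream at 19.6. The site 32.9 kb downstream of its TSS (chr13:113298016-113298307), which also lies within 20 kb of *Il31ra*, ranked at 92.8 with 132 fragments in WT and at 62.1 with 51 in dKO (log2 ratio -0.94, interval -1.44 to -0.46). *Il31ra*, the IL-31 receptor chain, held in intron 1 the highest-ranked WT site of all the loci, at 99.9, which ranked at 97.1 in dKO. *Il27ra*, the IL-27 receptor alpha chain, had a promoter site at 52.8 with 57 fragments in WT and at 27.9 with 26 in dKO (log2 ratio -0.70, interval -1.43 to -0.01). *Il11ra1*, the IL-11 receptor alpha chain, had the most WT sites of any member, 10, against 6 in dKO. Its annotated body spans *Dctn3*, *Galt* and other genes, whose TSSs most of these sites were nearest to, and *Il11ra1* has a near-identical copy, *Il11ra2*, so these counts are uncertain as values of *Il11ra1*.

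In the IL-1 receptor family, the IL-18 receptor genes had no site of 1 list only. *Il18r1*, the IL-18 receptor, had 6 regions and *Il18rap*, its accessory chain, had 2, of which 1 is common to both, and all were shared. The *Il18r1* promoter site ranked at 41.9 in WT and 44.4 in dKO, with 47 and 39 fragments. The intron 5 site ranked at 91.4 and 92.8, with 120 and 92 fragments, and the intron 4 site at 30.2 and 53.7, with a log2 ratio of 0.59 (interval 0.06 to 1.12). That interval lies above 0, which was the case at only 2 other shared regions, both at *Ifngr1*. The *Il18rap* promoter site ranked at 3.46 and 19.7, and its intron 11 site at 92.3 and 93.0. The 9 IL-1 family receptor genes together had 14 WT sites, 4 of them in WT only (28.6%, against 27.6% of the whole WT list). None of their 10 dKO sites was in dKO only, against 14.4% of the whole dKO list. Of the WT-only sites, 3 were at *Il1rl2* (the IL-36 receptor) and 1 at *Il1r2* (the decoy IL-1 receptor).

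In the IL-10 and lambda families, *Il10ra* and *Il10rb* encode the IL-10 receptor chains. The *Il10ra* site in intron 1, 796 bp from the TSS, was in WT only at percentile 48.8 with 53 fragments, and a site 21.5 kb from the TSS ranked at 47.2 and 30.6. *Il10rb* had 4 shared, 2 WT-only and 1 dKO-only regions, the strongest at 67.6 in WT and 52.3 in dKO. The *Il20ra* promoter site, for an IL-20 receptor chain, ranked at 34.8 with 36 fragments in WT and at 0.505 with 16 in dKO (log2 ratio -0.74, interval -1.69 to 0.15), so the ratio was within counting error. The site 2.05 kb upstream of *Il22ra2*, which encodes a soluble IL-22 binding protein, ranked at 58.0 with 50 fragments and at 14.1 with 21 (log2 ratio -0.82, interval -1.63 to -0.06). The strongest dKO-only site of the loci lay 16.2 kb downstream of the TSS of *Il28a*, an interferon lambda gene, at percentile 73.9 with 47 fragments.

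Among IL-17 receptors, the *Il17rd* promoter site was in WT only at percentile 38.8, as was a site 15.9 kb upstream at 74.9 with 62 fragments, while a site in its intron 1 was in dKO only at 38.2. The site 23.2 kb downstream of the *Il17rc* TSS, with *Prrt3* as the nearest TSS, ranked at 78.4 with 83 fragments in WT and at 43.5 with 32 in dKO. *Il17ra*, the common IL-17 receptor chain, had 3 regions that all ranked higher in dKO, including an intron 1 site at 67.8 and 77.2. The log2 ratio there was 0.03 (interval -0.39 to 0.44), and that of the shared downstream site was 0.25 (interval -0.43 to 0.92), so both span 0. The remaining region was a dKO-only site at percentile 5.39. Of the IL-17 ligands, *Il17a* and *Il17f* had no site.

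**Figure D5:**
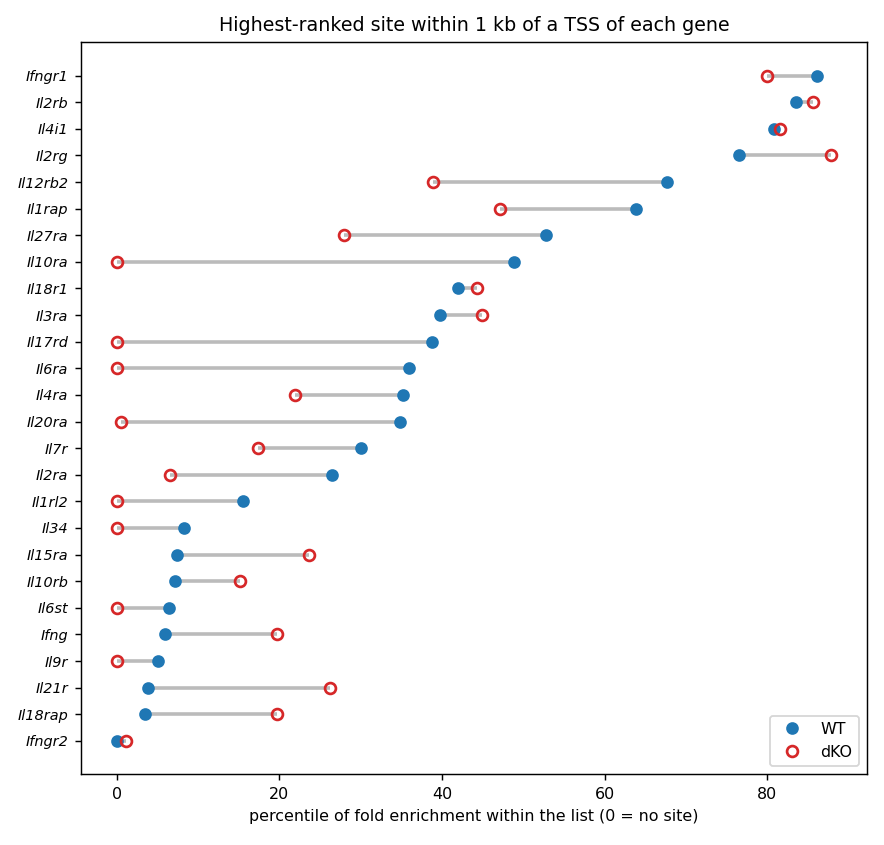
Percentile of the highest-ranked ChrAcc site within 1 kb of any TSS of the gene (horizontal axis), in WT (filled blue) and dKO (open red), for the 26 members with such a site in either list, where 0 stands for no site. The promoters of *Ifngr1*, *Il2rb*, *Il4i1* and *Il2rg* ranked above 70 in each list. A WT site alone was present at 7 promoters, and a dKO site alone at that of *Ifngr2*. Counted by site in the whole lists, 15.2% of WT sites within 1 kb of a TSS were in WT only, and 4.23% of such dKO sites in dKO only.

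*Ifng* encodes interferon gamma, the main cytokine of effector CD8+ T cells, and was only weakly marked in these naïve cells. Its promoter site, 210 bp upstream (chr10:117877727-117877962), contains a STAT and a T-box motif and ranked at 5.91 in WT and 19.7 in dKO, with 23 fragments in each pool. The log2 ratio of 0.43 (interval -0.47 to 1.33) spans 0. A site 17.9 kb from the TSS ranked at 21.5 and 8.18, and one 20.5 kb from it was in WT only at 26.0. *Ifngr1*, the ligand-binding chain of its receptor, had a strong promoter site at 86.1 in WT and 80.0 in dKO, with 149 and 106 fragments. Its intron 1 site, 5.08 kb from the TSS, ranked at 0.666 and 23.2, with 38 and 49 fragments and the highest log2 ratio of the shared regions, 0.80 (interval 0.16 to 1.45). *Ifngr2*, the signalling chain, had a site 13.2 kb upstream at 57.7 and 44.8 and an intron 1 site at 25.4 and 51.6, and its promoter site was in dKO only, at 1.16.

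Near cytokine genes, most sites were those of neighbouring genes or lay far from the cytokine's TSS. The site 13.4 kb upstream of *Il5*, the eosinophil growth factor, lies 42 bp from a *Rad50* TSS (chr11:53520785-53521010). It ranked at 99.5 with 121 fragments in WT and at 61.6 with 40 in dKO, with a log2 ratio of -1.17 (interval -1.72 to -0.64), the last of the 3 shared sites at least 2-fold higher in WT. *Il4*, which encodes the cytokine that opposes the IL-12 programme in helper cells, had 2 WT-only sites 28.2 and 28.0 kb downstream of its TSS, at 62.0 and 13.2, with *Kif3a* as the nearest TSS. *Il21* had a WT-only site 27.3 kb downstream at 51.5 with 91 fragments, beside a shared one at 62.8 and 74.2. The dKO-only site at *Il27*, at 56.8 with 38 fragments, lay 109 bp from a *Cln3* TSS and 11.6 kb from that of *Il27*, and a WT-only site at 32.1 lay next to it without overlap, 11.4 kb from the *Il27* TSS, so the absence there is of an overlap and not of open chromatin nearby.

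*Il16*, which encodes a T cell chemoattractant, had 4 shared sites and a WT-only site in intron 6 (chr7:90824161-90824475) at percentile 72.7 with 62 fragments. Its shared sites ranked at 91.6, 56.8, 21.5 and 73.5 in WT and at 81.7, 58.1, 16.1 and 65.6 in dKO. The second of these, in intron 12, holds a Tcf/Lef core. The first lay 103.6 kb downstream of the *Il16* TSS, past the 3′ end of the gene. For every site of the *Il16* locus, *Stard5* was the nearest TSS. *Il4i1*, which encodes an amino acid oxidase induced by IL-4, had 7 WT and 6 dKO sites, among them a site at an upstream *Il4i1* TSS and 60 bp from a *Nup62* TSS, which ranked at 80.8 and 81.6.

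For the motifs, the 201 bp around each summit were searched on both strands, and a match is a description of the letters and not of binding. The Tcf/Lef core ATCAAAG occurred at 7 of 170 WT sites in the loci (4.12%, against 3.81% of all WT sites) and at 5 of 143 dKO sites (3.50%, against 2.42%). The WT sites with the core lay at *Il12rb2* (both WT only), *Il10rb* (WT only), *Ifngr2*, *Il16*, *Il21r* and *Il20rb*. It occurred at 3 of 52 WT-only sites (5.77%, interval 1.98 to 15.6%, against 6.98% of all WT-only sites) and at 0 of 24 dKO-only sites (interval 0 to 13.8%, against 2.19% of all dKO-only sites). The Runx motif TGTGGTT occurred at 31 WT sites (18.2%, interval 13.2 to 24.7%, against 9.67% of all WT sites) and at 28 dKO sites (19.6%, against 10.6%). The STAT motif TTCNNNGAA occurred at 20 WT sites (11.8%, interval 7.75 to 17.5%, against 5.83%) and at 17 dKO sites (11.9%, against 5.66%). For the Ets motif CCGGAAG the WT shares were 8.82% and 9.00%, for the AP-1 motif TGANTCA 8.82% and 6.09%, and for the T-box motif GGTGTGA 5.29% and 3.13%. Runx and STAT shares in the loci were thus above those of the whole list in each genotype, whereas the Tcf/Lef and Ets shares were near them.

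The Jak, Stat, Socs and adaptor genes that act beneath these receptors were taken as a list of 16 (*Jak1* to *Jak3*, *Tyk2*, the Stat genes, *Socs1*, *Socs3*, *Cish*, *Myd88* and *Irak4*). In each list, 15 of the 16 had a site within 1 kb of a TSS, all except *Tyk2*. They had 94 WT and 84 dKO sites. Of these, 23 were in WT only, against 27.6% of the whole WT list, and 12 in dKO only, against 14.4% of the whole dKO list. More sites were listed in WT for 8 genes and in dKO for 4, against 26.6% and 9.66% of all protein-coding genes, and 4 had as many of each. The best promoter site of *Jak1*, the kinase that γc and gp130 receptors use, ranked at 77.3 in WT and 83.2 in dKO. *Stat4*, which signals for IL-12, had 10 WT sites, 3 of them in WT only, and 7 dKO sites, and its promoter site ranked at 14.3 and 24.7. *Stat5b*, which signals for γc cytokines, likewise had 10 and 7 sites. *Cish*, an inhibitor that Stat5 induces, had 5 WT and 8 dKO sites.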

How the data were processed

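The 5 DNase-seq samples were represented by 1 WT and 1 dKO peak list. Per the methods and file headers, the authors aligned reads to mm9 with Bowtie2 2.2.5, kept uniquely mapped reads, pooled the replicates per genotype and called peaks with MACS2 2.1.1.20160309 in paired-end mode, without control, at p under 1e-05. The headers list 167847468 WT and 124485926 dKO fragments, of which 83923734 and 62242963 were kept with at most 1 duplicate. The totals are exactly 2 times the kept fragments and the headers name a pair of BAM files of 1 base name per pool, so each pool may have been read in repeatedly, and the totals do not measure duplication. The deposited pileup is an unscaled signal in fragments, the deposited fold enrichment is its ratio to the local background, and significance was deposited as a -log10 p from MACS2 with a -log10 q score after adjustment. Ranks of fold enrichment, overlaps, log2 ratios of pileups scaled to pool size with exact binomial intervals, Wilson intervals for shares and motif matches were computed with Python 3.11.15, pandas 2.3.3, scipy 1.17.1 and pysam 0.24.0, and the overlap, window, rank and motif steps were tested on simulated data. No test between genotypes was possible with pools.

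Members, marker and pathway lists, motifs and named genes were chosen with earlier results of these data known. The text names every γc receptor gene, every site of 1 list only at percentile 50 or above, the 10 shared sites with the largest rank difference, the 5 genes with most WT sites and 22 genes of known T cell function. The cut of 25 percentile points, the count of intervals on 1 side of 0 and other sites named were chosen after the values were seen. Alternatives varied the site criteria, list length, overlap, window, gene assignment, ranked measure and motif window. Some items withheld for evaluation are not reported here.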

Additional observations from a re-analysis of the deposited data

How the results depend on the processing

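The 12 alternatives gave 75 values of the main counts and shares, of which 51 stayed close to those reported, and the 10 named shared sites, picked for the size of their difference, kept its direction in the 58 values that could be computed (*Il20ra* gave none under some settings). A site of 1 list only has percentile 0 in the other, so its direction says little. With a minimum fold enrichment of 8, the loci held 77 WT and 65 dKO sites, with 21 WT-only and 9 dKO-only sites, and the Tcf/Lef core was at 4 WT, 1 WT-only and 3 dKO sites. With a 50 bp motif window it was at 4 WT and 2 dKO sites. With q under 1e-10, 12 dKO-only sites (10.8%) were left. When each list was cut to its 20000 peaks of highest -log10 p, 111 WT sites were left, 26 of them WT only (23.4%), and 105 dKO sites, 20 of them dKO only (19.0%), so the shares lay closer together, and the median rank difference of shared sites was 1.27 in place of -0.67. In gene bodies alone there were 60 WT sites (18 WT only) and 46 dKO sites (5 dKO only, 10.9%), and with 50 kb on each side there were 301 WT sites (83 WT only) and 254 dKO sites. Sites whose nearest TSS was a member numbered 112 in WT, 34 of them WT only. Apart from the motif window, which searched less sequence, fewer or more sites entered these settings by construction.

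No paired analysis was possible because the authors pooled the replicates before calling peaks, and for the same reason no fit without a replicate was made. Depth limits absence from the dKO list, which rests on fewer fragments, and weak sites most of all.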
